A study of Homo sapiens with 21 samples.

Results

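The genes described here encode 6 proteins of the granin family and its relatives, 3 neuropeptide precursors and 1 neuropeptide receptor. They are CHGA, CHGB, SCG2, SCG3, SCG5, VGF, NPY, GAL, VIP and GALR2, taken by gene symbol from the 62656 genes counted. All 10 passed the filter on low counts, as did 24879 genes in all. RNA came from SH-SY5Y, a human neuroblastoma cell line labelled wild type, which was differentiated towards neuron-like cells for 11 days before exposure. The 6 compound groups received PFOA, PFDA, PFOS, PFDS, the fluorotelomer sulfonic acid 8:2 FTS or the fluorotelomer alcohol 8:2 FTOH, each at 30 µM for 24 h in a solution holding 1% methanol, and the seventh group was Control. For the control cells the sources used here give no methanol content. PFOA and PFDA are perfluoroalkyl carboxylic acids and PFOS and PFDS are sulfonic acids, PFDA and PFDS having the longer chains. 8:2 FTS has the perfluorinated chain of PFOS with an unfluorinated ethylene spacer before the sulfonate, and 8:2 FTOH ends in a hydroxyl group after the same spacer. There were 3 libraries per group, 21 in all, and no label says whether the 3 came from separate cultures, so each p-value speaks only of how far these libraries scattered, and that scatter may be technical. The series set out to study neurotoxic effects of these compounds at concentrations it calls sub-toxic.

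Neuroendocrine cells and many neurons store peptides in dense-core granules and release them when calcium rises. Granins are acidic proteins that aggregate in the trans-Golgi network, take part in forming the granules, and are cut by prohormone convertases into smaller peptides. Neuropeptide precursors enter the same granules, and the released peptides act mostly through G protein-coupled receptors. In sympathetic neurons and in tumours of the sympathetic lineage, granins and NPY are commonly found together, and chromogranin A is used in the clinic as a marker of neuroendocrine tumours.

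The total count ran from 7680024 to 30429746 per library (median 14633793), and the control libraries held 22179910 to 24905803. The compound libraries had a median of 13570921, so the controls were deeper than most of them. Mitochondrially encoded genes took between 3.37% and 6.33% of the counts, with the highest shares in control replicate 3 (6.33%), 8:2 FTOH replicate 3 (6.11%), PFDA replicate 2 (5.4%) and PFDS replicate 1 (5.24%). Over all genes, the first 2 of these also differed most from the rest of their groups, by chi-square per degree of freedom between library pairs. It was 31.1 and 31 for control replicate 3, against 7.78 between the other controls. For 8:2 FTOH replicate 3 it was 24.9 and 39.1, against 4.63 between the others of that group. Control replicate 3 is part of every comparison with control. PFDS replicate 1 stood apart for several of the 10 genes: over all 21 libraries it was the lowest for VGF, SCG2, NPY and VIP and the highest for CHGA. For these 5 genes the comparison of PFDS with control is also given without it. On the CPM scale (counts scaled to library size), 11 of 12 markers of sympathoadrenal neurons had 28.2 CPM or more in every library, among them DBH (979 to 1404 CPM), while TH, the first enzyme of catecholamine synthesis, was at 0 to 1.74 CPM. Over the groups, the 12 summed markers of mesenchymal cells ran from 338 to 424 CPM, most of it TWIST1, and the 8 summed markers of Schwann cells from 8.63 to 15 CPM. Of the Schwann cell markers, FOXD3 had no read and CDH19 reached at most 0.0451 CPM. Among the mesenchymal markers, FN1 (34.5 to 47.5 CPM), VIM (16.6 to 26.9 CPM), LUM (11.6 to 20.7 CPM) and COL3A1 (6.16 to 15.8 CPM) had reads in every library, while PRRX1 reached at most 0.171 CPM and YAP1 0.178 CPM.

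Per exon length, 8 of the 10 genes were abundant in control cells and 2 were low by the reads counted. On the scale of reads per kilobase of exon and unit of library size (RPKM), VGF had a control mean of 552, the 21st highest of 14420 protein-coding genes tested, and alone made up 50.5% of the summed RPKM of the 10. NPY followed at 165 RPKM, then SCG2 at 99.9, CHGA at 84.1, CHGB at 81.6 and SCG3 at 61.8 RPKM. VIP and GAL were lower, at 27.5 and 19.8 RPKM. GALR2 was at 0.794 RPKM and SCG5 at 0.446 RPKM, above 16.3% and 10.9% of the protein-coding genes tested. The level and rank of SCG5 are uncertain, because 1129 of its 2196 exon bases are shared with another gene. Reads there may be missing from its count, while its RPKM uses the full length.

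**Figure D1:**
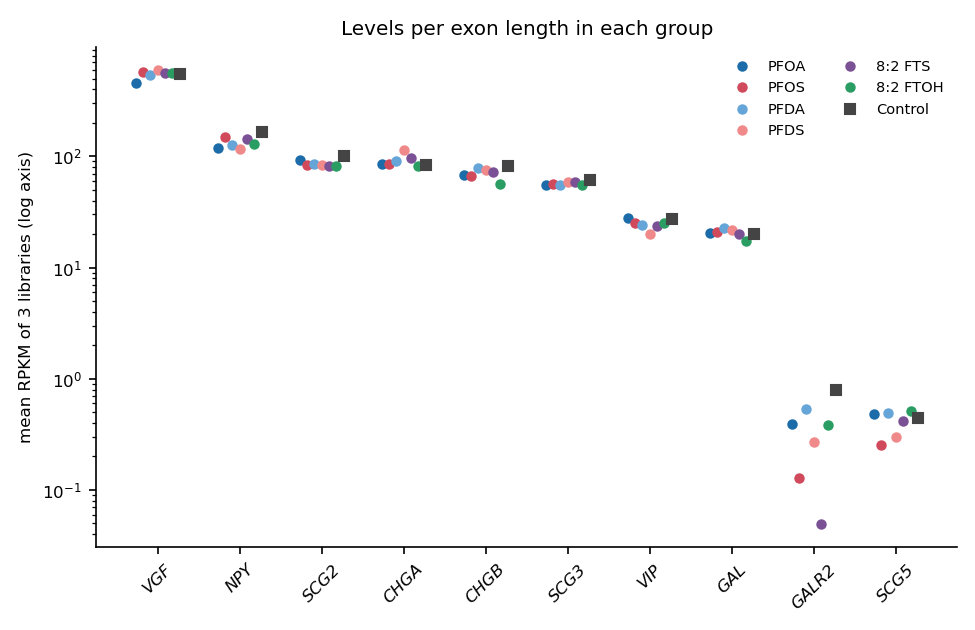
Mean RPKM of the 3 libraries of each group for the 10 genes, on a log axis; circles are the compound groups and squares the controls. VGF lies highest in every group, 8 genes lie above 10 RPKM, and GALR2 and SCG5 lie below 1 RPKM. The level of SCG5 is uncertain, because it shares exon bases with another gene.

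The levels of the 8 abundant genes rested on many reads in every library, from 154 reads for GAL in 8:2 FTOH replicate 3 to 53139 for VGF in PFDS replicate 3. SCG5 and GALR2 rested on 0 to 34 reads. In bulk RNA of this kind, fewer cells that express a gene and less RNA per cell cannot be told apart.

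The start regions of these genes can be read for short DNA motifs. RefSeq (build GRCh38.p14) gave a window for 7 of the 10 genes, CHGA, SCG3, SCG5, VGF, NPY, VIP and GALR2, and the 250 bases before each start were searched on both strands. The cyclic AMP response element, TGACGTCA, which CREB-family factors bind, was in the windows of CHGA and VGF, and in 1.65% of 35116 windows overall. Its core TGACG, which lies inside the full element, was in 4 of the 7 (CHGA, SCG5, VGF and VIP) and in 21.2% of all windows. The EGR motif GCGNGGGCG was in CHGA and VGF and in 8.41% of all windows. The AP-1 motif TGANTCA was in none of the 7 and in 6.57% of all windows. These matches describe letters and do not show that a factor was bound. The 120 bases before the start are shown for the most abundant gene (VGF, chr7:101165570-101165689, minus strand), for the gene whose PFDS libraries all lay above control (CHGA, chr14:92923030-92923149, plus strand), for a peptide gene with cores only (VIP, chr6:152750677-152750796, plus strand) and for the receptor that passed the test (GALR2, chr17:76074661-76074780, plus strand), with the motif letters in capitals and the strand that reads towards the gene.
VGF: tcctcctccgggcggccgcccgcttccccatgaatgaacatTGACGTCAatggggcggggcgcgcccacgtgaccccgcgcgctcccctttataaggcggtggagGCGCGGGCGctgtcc
CHGA: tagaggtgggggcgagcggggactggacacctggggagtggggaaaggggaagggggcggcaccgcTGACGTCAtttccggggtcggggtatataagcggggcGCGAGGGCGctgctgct
VIP: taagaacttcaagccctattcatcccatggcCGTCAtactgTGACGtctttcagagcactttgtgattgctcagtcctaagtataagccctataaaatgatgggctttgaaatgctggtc
GALR2: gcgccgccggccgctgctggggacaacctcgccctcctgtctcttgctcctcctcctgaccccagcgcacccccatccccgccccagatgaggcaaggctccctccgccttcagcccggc
In VGF the full element lay 79 to 72 bases before the start and the EGR motif 15 to 7 bases before it. In CHGA they lay 54 to 47 and 17 to 9 bases before it. VIP held a core on each strand, 89 to 85 and 79 to 75 bases before the start, and GALR2 held none of the 4 motifs.

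Each compound was then compared with control. Fold changes are on the log2 scale, compound over control, from edgeR's quasi-likelihood fit across all 24879 genes, with Benjamini-Hochberg adjustment over those genes within each comparison and a call at an adjusted p under 0.05. Of the 60 tests of the 10 genes, 1 passed: GALR2 fell with 8:2 FTS. Over all genes 0.0342% of such tests were called. The count was 0 of 10 for PFOA (0.0322% of all genes called), PFOS (0.0241%), PFDA (0.00804%), PFDS (0.0241%) and 8:2 FTOH (0.0322%), and 1 of 10 for 8:2 FTS (0.0844%, and 0.0724% called lower). At an unadjusted p under 0.05 the count was 18 of 60 (30%), where 7.75% of all genes' tests had such a p. The highest such count was 5 of 10, with PFDS (5.58% of all genes). PFOS (6.83%), PFDA (8.43%) and 8:2 FTS (7.77%) had 3 each, and PFOA (10.1%) and 8:2 FTOH (7.83%) had 2 each. The 10 genes were chosen with earlier results of these data known, so an excess over all genes, here or below, does not test the set. The median log2 fold change of the 10 genes ran from -0.19 (PFDS) to -0.12 (PFDA), and that of all genes from 0.00 to 0.01. DESeq2 called 2 of the 60, CHGA with PFDS and CHGB with 8:2 FTOH. It also called more genes over all genes than edgeR did. With PFDS it called 34 genes (6 with edgeR) and with 8:2 FTOH 59 (8 with edgeR). For PFOA, PFOS, PFDA and 8:2 FTS it called 128, 19, 23 and 49 genes, against 8, 6, 2 and 21 with edgeR.

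More of the genes lay wholly below the controls than wholly above them. In 19 of the 60 comparisons (31.7%) all 3 compound libraries were under all 3 controls, against 7.07% over all genes. In 1 of 60 (1.67%) all 3 were above, against 6.38% over all genes. For PFOA the genes wholly below control were CHGB, VGF and NPY (8.46% of all genes were), and for PFOS they were CHGB, SCG2 and GALR2 (7.41%). With PFDA these were SCG2 and NPY (7.85%), and with PFDS they were NPY, VIP and GALR2 (4.53%), while CHGA was wholly above (3.72%). Under 8:2 FTS they were CHGB, SCG2, NPY and GALR2 (7.17%), and under 8:2 FTOH they were CHGB, SCG2, SCG3 and GALR2 (6.98%). Of the 10 genes 0 lay wholly above control for the other 5 compounds, where 7.45% of all genes did for PFOA, 6.62% for PFOS, 7.92% for PFDA, 6.64% for 8:2 FTS and 5.95% for 8:2 FTOH. All 6 comparisons use the same 3 control libraries, so the comparisons are not independent of each other. Because the 10 genes were chosen with earlier results known, these shares describe them and do not test a shift of the set. Per exon length the 8 abundant genes were above at least 87.4% of protein-coding genes tested, so all genes are not a background of like abundance.

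**Figure D2:**
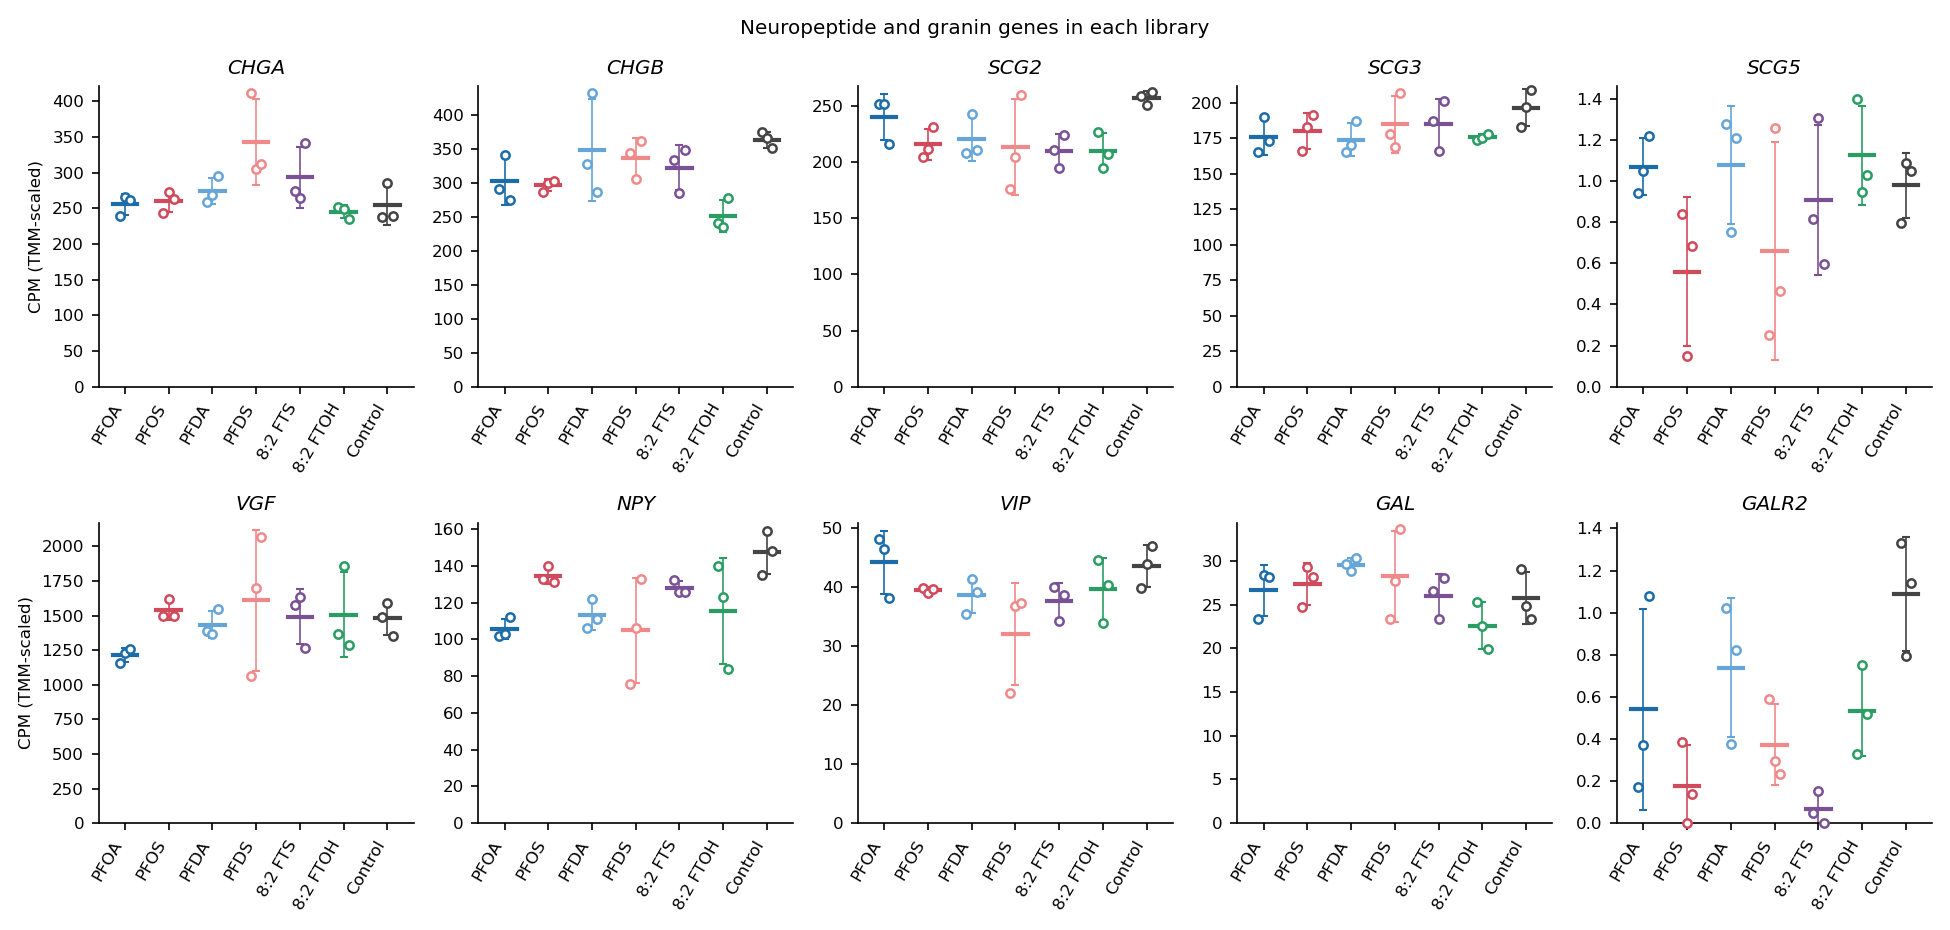
CPM (counts scaled to library size, with TMM factors) of each gene in each of the 21 libraries; open circles are libraries, thick bars the group means and thin bars the SD (n = 3), cut off at 0. The controls of SCG2 lie at 251 to 262 CPM and those of CHGB at 351 to 374 CPM, above most compound libraries, and the 8:2 FTS libraries of GALR2 lie at 0 to 0.154 CPM.

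CHGA encodes chromogranin A, which takes part in granule formation and is the precursor of vasostatin, pancreastatin and catestatin (chr14:92923150-92935285, plus strand, hg38). It had 412, 305 and 312 CPM in the PFDS libraries, against 238, 286 and 239 CPM in control. All 3 PFDS libraries were above all 3 controls, and the first stood well above the other two. The means were 343 ± 60 CPM with PFDS and 254 ± 27.3 CPM in control (SD, n = 3 each), a log2 fold change of 0.43 ± 0.10 (SE) with an adjusted p of 0.12, which did not pass. DESeq2 gave an adjusted p of 0.0259. Without PFDS replicate 1, the fold change was 0.28 (adjusted p = 0.625), and without PFDS replicate 3 it was 0.50 (adjusted p = 0.0221), and over all alternatives the adjusted p ran from 0.000198 to 0.625. Under 8:2 FTS the libraries had 274, 264 and 342 CPM, which overlapped control (log2 fold change 0.21, adjusted p = 0.612). The other 4 groups had means of 245 to 274 CPM, and their fold changes ran from -0.05 to 0.11. CHGA held the full cyclic AMP element printed above.

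CHGB encodes chromogranin B, the second main core protein of the granule (chr20:5911510-5925353, plus strand). It had 241, 235 and 278 CPM in the 8:2 FTOH libraries, against 374, 365 and 351 CPM in control. The 8:2 FTOH libraries were all below the controls by a wide margin, and that group was also the lowest of the 7. The means were 251 ± 22.9 CPM with 8:2 FTOH and 363 ± 11.5 CPM in control (SD, n = 3 each), with a log2 fold change of -0.53 ± 0.11 (SE) and an adjusted p of 0.0709. That value missed the threshold, and 7 of 29 alternative fits put it past the threshold, among them DESeq2 (adjusted p = 0.00471), the fit of those 2 groups alone (0.00095) and the fit without PFDA replicate 2 (0.000797). Over all alternatives its adjusted p ran from 3.02e-08 to 0.412. 8:2 FTOH replicate 3 is the shallowest library and has a high mitochondrial share, and without it the log2 fold change was -0.61 (adjusted p = 0.0792). PFDA was the most scattered group, with 327, 432 and 286 CPM.

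In the remaining comparisons of CHGB with control, none passed. The PFOA libraries had 291, 341 and 275 CPM (log2 fold change -0.26, adjusted p = 0.411), and the PFOS libraries had 286, 300 and 303 CPM (-0.29, adjusted p = 0.586, and 0.0404 with only those groups fitted). These lay below all 3 controls. With 8:2 FTS the values were 334, 285 and 348 CPM (-0.17, adjusted p = 0.756), also below all controls. PFDS, at 344, 305 and 362 CPM, and PFDA overlapped them.

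SCG2 encodes secretogranin II, the precursor of secretoneurin (chr2:223596940-223602361, minus strand). The 8:2 FTOH libraries had 227, 195 and 207 CPM, and the 8:2 FTS libraries had 211, 195 and 224 CPM, against 259, 251 and 262 CPM in control. Both groups lay wholly below the controls, which had the smallest SD of its 7 groups (5.87 CPM). The PFOS libraries, at 204, 212 and 231 CPM, and the PFDA libraries, at 208, 243 and 211 CPM, lay below them too. The PFOA libraries, at 252, 252 and 216 CPM, and the PFDS libraries, at 176, 204 and 260 CPM, overlapped control. None of the 6 differences passed: the log2 fold changes ran from -0.30 (8:2 FTOH, adjusted p = 0.329) to -0.10 (PFOA, adjusted p = 0.782). For PFDS it was -0.27 (adjusted p = 0.621), -0.15 without PFDS replicate 1 (adjusted p = 0.86) and -0.44 without PFDS replicate 3 (adjusted p = 0.00519), so whether it was called depended on which library was left out.

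SCG3 encodes secretogranin III, which binds chromogranin A and the cholesterol-rich granule membrane (chr15:51681492-51721026, plus strand). It varied least of the 8 abundant genes, from 165 to 209 CPM over 21 libraries. The control mean was the highest of the 7, at 196 ± 13 CPM, and the group means of the compounds lay between 174 ± 11.4 CPM (PFDA) and 185 ± 19.5 CPM (PFDS). The 8:2 FTOH libraries, at 174, 175 and 178 CPM, were all below the controls at 183, 197 and 209 CPM, and the other 5 groups overlapped them. The 6 log2 fold changes ran from -0.17 to -0.08, with adjusted p-values from 0.516 to 0.986.

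SCG5 encodes 7B2, the chaperone of the prohormone convertase PC2 (chr15:32641676-32697098, plus strand). Its values are uncertain, because 1129 of its 2196 exon bases are shared with the same-strand gene ARHGAP11A-SCG5 and the counting program's default leaves out reads that overlap several genes. It had 1.4, 0.947 and 1.03 CPM with 8:2 FTOH and 0.84, 0.15 and 0.687 CPM with PFOS, the highest and the lowest group means, against 0.799, 1.09 and 1.05 CPM in control. Every compound group overlapped control, and the 6 adjusted p-values were 0.842 to 0.978. With PFOS there were 38 reads in all, against 66 in control, a ratio of 0.66 per unit of depth (exact 95% interval 0.43 to 0.998). With PFDS there were 32 reads, a ratio of 0.64 (0.406 to 0.99). The ratios of the other compounds ran from 0.92 (8:2 FTS) to 1.17 (PFDA), with intervals that held 1. Such intervals cover counting error only.

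VGF encodes a nerve growth factor-inducible protein that is stored in granules and cut into several bioactive peptides (chr7:101162509-101165569, minus strand). PFOA gave the lowest group, with 1160, 1231 and 1257 CPM, against 1492, 1594 and 1354 CPM in control. These 3 libraries lay below all the controls, yet the difference did not pass (log2 fold change -0.28 ± 0.19 SE, adjusted p = 0.666). The PFDS libraries were the most scattered, at 1060, 1702 and 2067 CPM, and held both the lowest and the highest of the 21 values. The 8:2 FTOH libraries had 1368, 1856 and 1290 CPM, and the other 3 compound groups ran from 1265 to 1634 CPM, all overlapping control. The 6 log2 fold changes ran from -0.28 to 0.12. The 0.12, for PFDS, was 0.35 without PFDS replicate 1 (adjusted p = 0.679) and -0.10 without PFDS replicate 3 (adjusted p = 0.912).

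NPY encodes the precursor of neuropeptide Y, a cotransmitter of noradrenaline in sympathetic neurons (chr7:24284188-24291862, plus strand). PFOA libraries had 102, 103 and 112 CPM, against 135, 159 and 148 CPM in control (-0.48 on the log2 scale, SE 0.17, adjusted p = 0.368), and PFDA libraries had 106, 122 and 111 CPM (-0.38, adjusted p = 0.568). Both groups lay wholly below control, as did 8:2 FTS at 132, 126 and 126 CPM (-0.21, adjusted p = 0.847). When only the 2 groups compared were fitted, the adjusted p was 0.0021 for PFOA and 0.0175 for PFDA, and over all alternatives it reached 0.873 and 0.987. PFDS libraries had 75.7, 106 and 133 CPM (-0.48, adjusted p = 0.737). The PFDS fold change was -0.30 without PFDS replicate 1 (adjusted p = 0.778) and -0.70 without PFDS replicate 3 (adjusted p = 0.0958). Among the 8:2 FTOH libraries, at 140, 123 and 83.8 CPM, and the PFOS libraries, at 133, 140 and 131 CPM, at least 1 overlapped control.

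VIP encodes vasoactive intestinal peptide, which raises cyclic AMP through its receptors (chr6:152750797-152759765, plus strand). Of its 1585 exon bases, 326 are shared with the opposite-strand gene LINC02840, and counting ignored strand, so its values are uncertain to that extent. LINC02840 was at 3.35 ± 0.301 CPM with PFDS and 4.03 ± 0.361 CPM in control. VIP had 22.1, 36.7 and 37.3 CPM in the PFDS libraries, against 39.8, 43.9 and 47 CPM in control. All 3 were below control, with replicate 1 far below the other two (log2 fold change -0.43 ± 0.13 SE, adjusted p = 0.463). Without that library the fold change was -0.23 (adjusted p = 0.778), and without PFDS replicate 3 it was -0.56 (adjusted p = 0.0633). With all libraries and no filter on low counts it was -0.43, with an adjusted p of 0.0122. The other 5 groups overlapped control, with fold changes from -0.21 to 0.02.

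GAL encodes galanin, a peptide of sympathetic and hypothalamic neurons (chr11:68683779-68691175, plus strand). It had 25.3, 22.5 and 19.9 CPM with 8:2 FTOH, the lowest group, and 29.6, 28.8 and 30.3 CPM with PFDA, the highest, against 29.1, 24.8 and 23.4 CPM in control. No compound group separated from control, and the fold changes ran from -0.19 to 0.20 with adjusted p-values from 0.659 to 0.991.

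GALR2 encodes a galanin receptor that acts mainly through Gq (chr17:76074781-76077537, plus strand). It had 0.0481, 0.154 and 0 CPM in the 8:2 FTS libraries, against 1.33, 0.796 and 1.14 CPM in control. These were 1, 2 and 0 reads, where the pooled control level would have given 22.5, 14.1 and 12.7 reads at the depth of those libraries. The groups did not overlap. GALR2 fell with 8:2 FTS, with a log2 fold change of -3.90 (SE 0.85, 95% interval -5.61 to -2.20, adjusted p = 0.0446). Its level was 0.0609 of the control level by reads (3 reads against 73, exact 95% interval 0.0123 to 0.185). The exact interval covers counting error only, not the scatter between libraries. The call lay near the threshold. It passed in 15 of 28 alternative fits, failed in 12 and had no adjusted p in DESeq2. A stricter filter removed the gene before testing. It was lost with scaling by library size only (adjusted p = 0.0507), without 8:2 FTS replicate 1, 2 or 3 (0.303, 0.132 and 0.148), without control replicate 1, 2 or 3 (0.164, 0.129 and 0.0618), and without control replicate 3 and 8:2 FTOH replicate 3 together (0.0563). It was also lost without PFDA replicate 1 (0.0684), PFDA replicate 3 (0.0601) or 8:2 FTOH replicate 2 (0.0594), none of them a library of the groups compared. The log2 fold change stayed between -4.89 and -3.49 in all of them, and the adjusted p between 0.00157 and 0.303.

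The other 5 compounds had group means of GALR2 between those of 8:2 FTS and control, and none passed the test. PFOS libraries had 0.388, 0 and 0.137 CPM (-2.31 on the log2 scale, SE 0.66, adjusted p = 0.375). PFDS libraries had 0.591, 0.296 and 0.233 CPM (-1.62 ± 0.64 SE, adjusted p = 0.756, -2.05 without PFDS replicate 1 and -1.30 without PFDS replicate 3). Both lay wholly below control, as did 8:2 FTOH at 0.329, 0.75 and 0.517 CPM (-0.95, adjusted p = 0.758). PFOA, at 0.171, 0.373 and 1.08 CPM, and PFDA, at 1.02, 0.375 and 0.822 CPM, overlapped it. Per unit of depth, the level by reads was 0.22 of control for PFOS, 0.307 for PFDS, 0.551 for 8:2 FTOH, 0.606 for PFOA and 0.742 for PFDA. The 3 lowest, 8:2 FTS among them, are the sulfonic acids, an order seen after the values and not tested as a class. The span of ZACN, a gene on the same strand, overlaps that of GALR2, but they share no exon base. ZACN had 2.81 ± 0.466 CPM with 8:2 FTS and 4.03 ± 0.73 CPM in control. The summed Schwann cell markers ran from 9.82 to 15 CPM in 8:2 FTS libraries and 10.3 to 12.5 CPM in control, and the mesenchymal ones from 365 to 396 CPM in 8:2 FTS libraries and 389 to 424 CPM in control. The part of these markers in the GALR2 result was not tested. Nor was that of depth: the control libraries held 22179910 to 24905803 counts and the 8:2 FTS libraries 20876392, 12583505 and 11877912. The deepest library had the highest GALR2 CPM in PFOA, PFOS and 8:2 FTOH, and not in PFDA, PFDS, 8:2 FTS or Control.

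**Figure D3:**
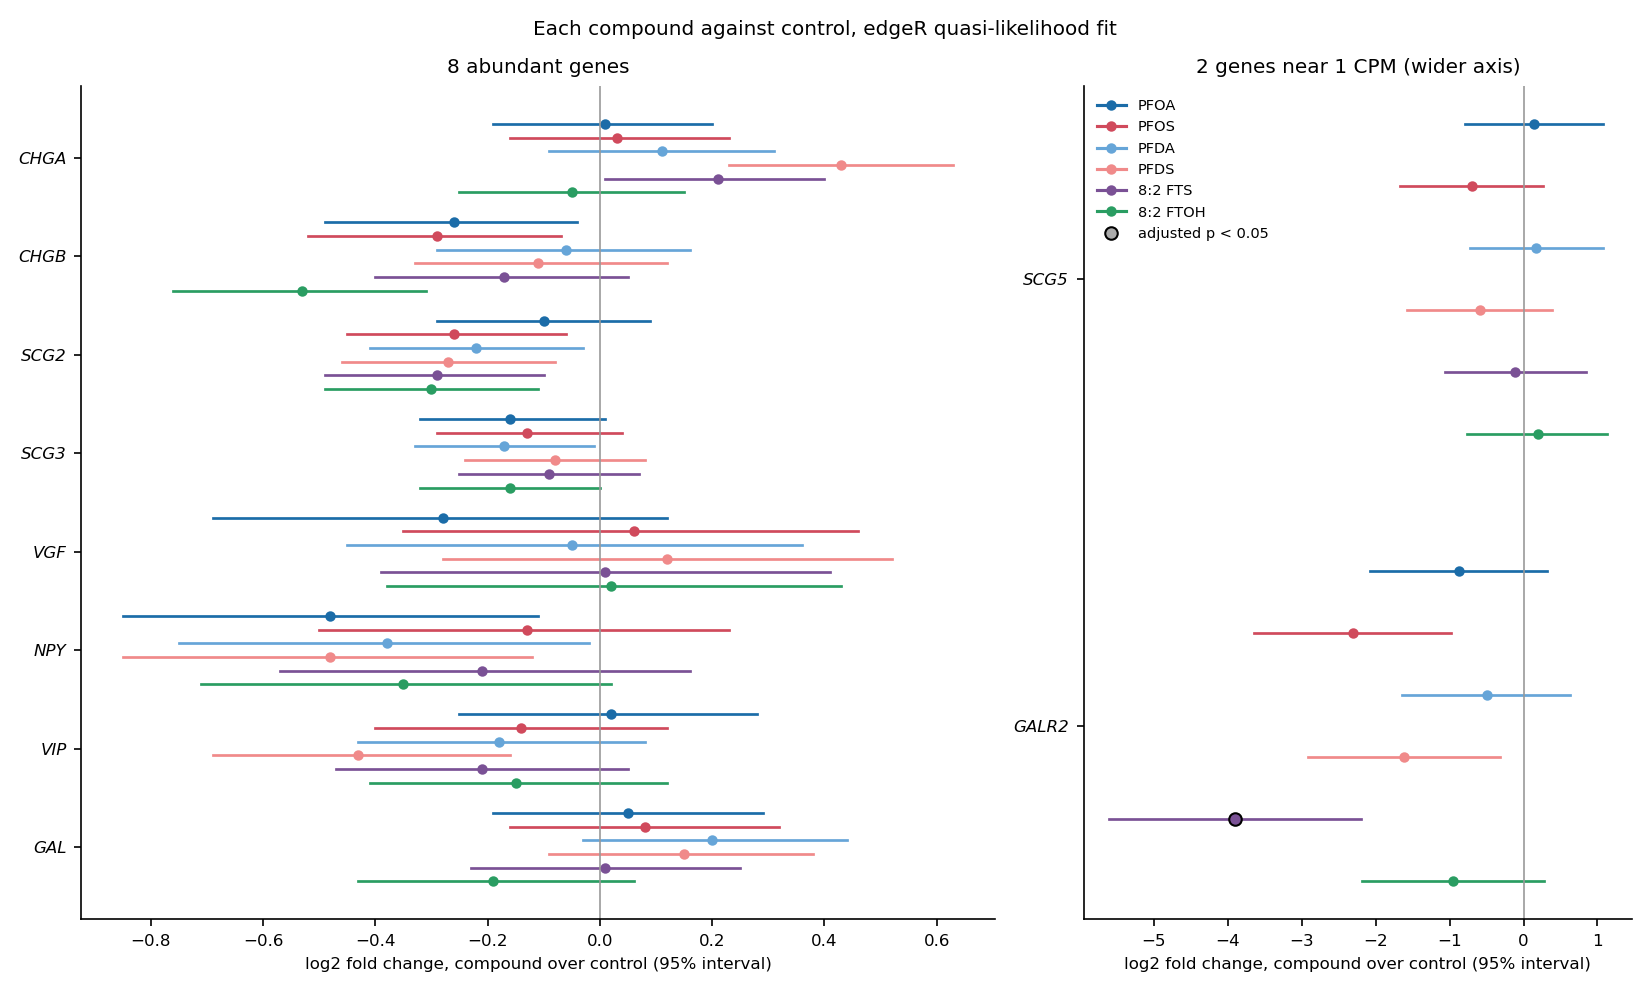
Log2 fold change of each gene for each compound over control with its 95% interval, from the edgeR fit. Among the 8 abundant genes every interval lies within a 2-fold change either way; the outlined point is GALR2 with 8:2 FTS at -3.90, the 1 call.

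For the 8 abundant genes the intervals of the reported fit give a range for each difference among these libraries. All 48 intervals against control lay within a 2-fold change either way, and 40 lay within 1.5-fold. The bounds of those intervals reached 0.555-fold at the low end (NPY) and 1.54-fold at the high end (CHGA). Each interval is for a single test, without adjustment for their number, and leaving out a library moved some estimates. NPY with PFDS, at -0.48 in that fit, was -0.70 without PFDS replicate 3. CHGB, SCG2, SCG3, NPY and GALR2 had negative fold changes for all 6 compounds, although CHGB with PFDA (-0.06) turned just above 0 with library size scaling and was 0.07 without PFDA replicate 3. Taking the mean of the 6 compounds against control, none of the 10 passed (0.35% of all genes were called). DESeq2 called 0, and 5 of the 10 had an unadjusted p under 0.05, as did 9.98% of all genes. The nearest were GALR2 at -1.69 ± 0.43 (SE, adjusted p = 0.0672), SCG2 at -0.24 ± 0.07 (adjusted p = 0.151) and CHGB at -0.24 ± 0.08 (adjusted p = 0.262). Without PFDS replicate 3, SCG2 had an adjusted p of 0.00728 and GALR2 of 0.0497 in this comparison. GALR2 also passed without PFOS replicate 1 (0.0415) or PFDS replicate 1 (0.0388), and CHGB without PFDA replicate 2 (0.0376). An F test of any difference among the 7 groups called 0 of the 10 (0.0322% of all genes called). At an unadjusted p under 0.05 there were 5 (5.91% of all genes), with adjusted p-values of 0.154 for CHGA, 0.191 for GALR2 and 0.286 for CHGB. DESeq2 called CHGA (0.00864) and CHGB (0.0167) there.

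The compounds were compared with each other at the same dose and time in 8 pairs. None of the 80 tests passed with edgeR or with DESeq2 (0.001% of all genes' tests were called: 0.00402% for PFDS over PFOS and for 8:2 FTOH over PFOA, and 0% in the other 6 pairs), and 11 had an unadjusted p under 0.05 (13.8%, against 4.32% over all genes). The first compound was wholly above the second in 10 tests (12.5%, against 4.73% over all genes) and wholly below in 4 (5%, against 5.05%). The lowest adjusted p was 0.54, for CHGA between PFDS and PFOS, the sulfonic acids of longer and shorter chain. There CHGA had 412, 305 and 312 CPM with PFDS and 244, 273 and 263 CPM with PFOS, without overlap (log2 fold change 0.40, 95% interval 0.20 to 0.60), and 0.25 without PFDS replicate 1 (adjusted p = 0.999). Between the carboxylic acids of longer and shorter chain, PFDA and PFOA, the CHGA fold change was 0.10 (95% interval -0.09 to 0.30, adjusted p = 1). The difference between those chain length effects was 0.30 (95% interval 0.02 to 0.57, adjusted p = 0.998), and none of the 10 genes passed that test, in which 0% of all genes were called. DESeq2 called 0, and 1 of the 10 had an unadjusted p under 0.05, as did 3.49% of all genes.

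Sulfonic and carboxylic acids with the same number of carbons were also set against each other. PFDS over PFDA gave a CHGA fold change of 0.32 (95% interval 0.12 to 0.52, adjusted p = 0.89) and 0.17 without PFDS replicate 1, and PFOS over PFOA gave 0.02 (-0.17 to 0.22, adjusted p = 0.999). For NPY, PFOS libraries at 131 to 140 CPM lay above PFOA libraries at 102 to 112 CPM (0.34, 95% interval -0.02 to 0.71, adjusted p = 0.958), and the same held for VGF, at 1495 to 1623 CPM against 1160 to 1257 CPM (0.34, -0.06 to 0.74, adjusted p = 0.958). When only those 2 groups were fitted, the adjusted p was 0.0271 for each. Of the fluorotelomers, 8:2 FTS over 8:2 FTOH gave 0.36 for CHGB (95% interval 0.14 to 0.59, adjusted p = 1), with 334, 285 and 348 CPM against 241, 235 and 278 CPM and no overlap. 8:2 FTS over PFDS gave -0.22 for CHGA (95% interval -0.42 to -0.03, adjusted p = 0.999), and -0.07 without PFDS replicate 1. 8:2 FTS over PFOS, which differ by the spacer, gave 0.17 for CHGA (-0.02 to 0.37, adjusted p = 1). 8:2 FTOH over PFOA gave -0.27 for CHGB (-0.50 to -0.04, adjusted p = 0.733). For GALR2, 8:2 FTS over 8:2 FTOH gave -2.95 (95% interval -4.82 to -1.08, adjusted p = 1). SCG3 differed least: its 8 fold changes ran from -0.02 to 0.09, and their intervals from -0.18 to 0.25. Of the 64 intervals of the 8 abundant genes between compounds, all lay within a 2-fold change and 56 within 1.5-fold.

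**Figure D4:**
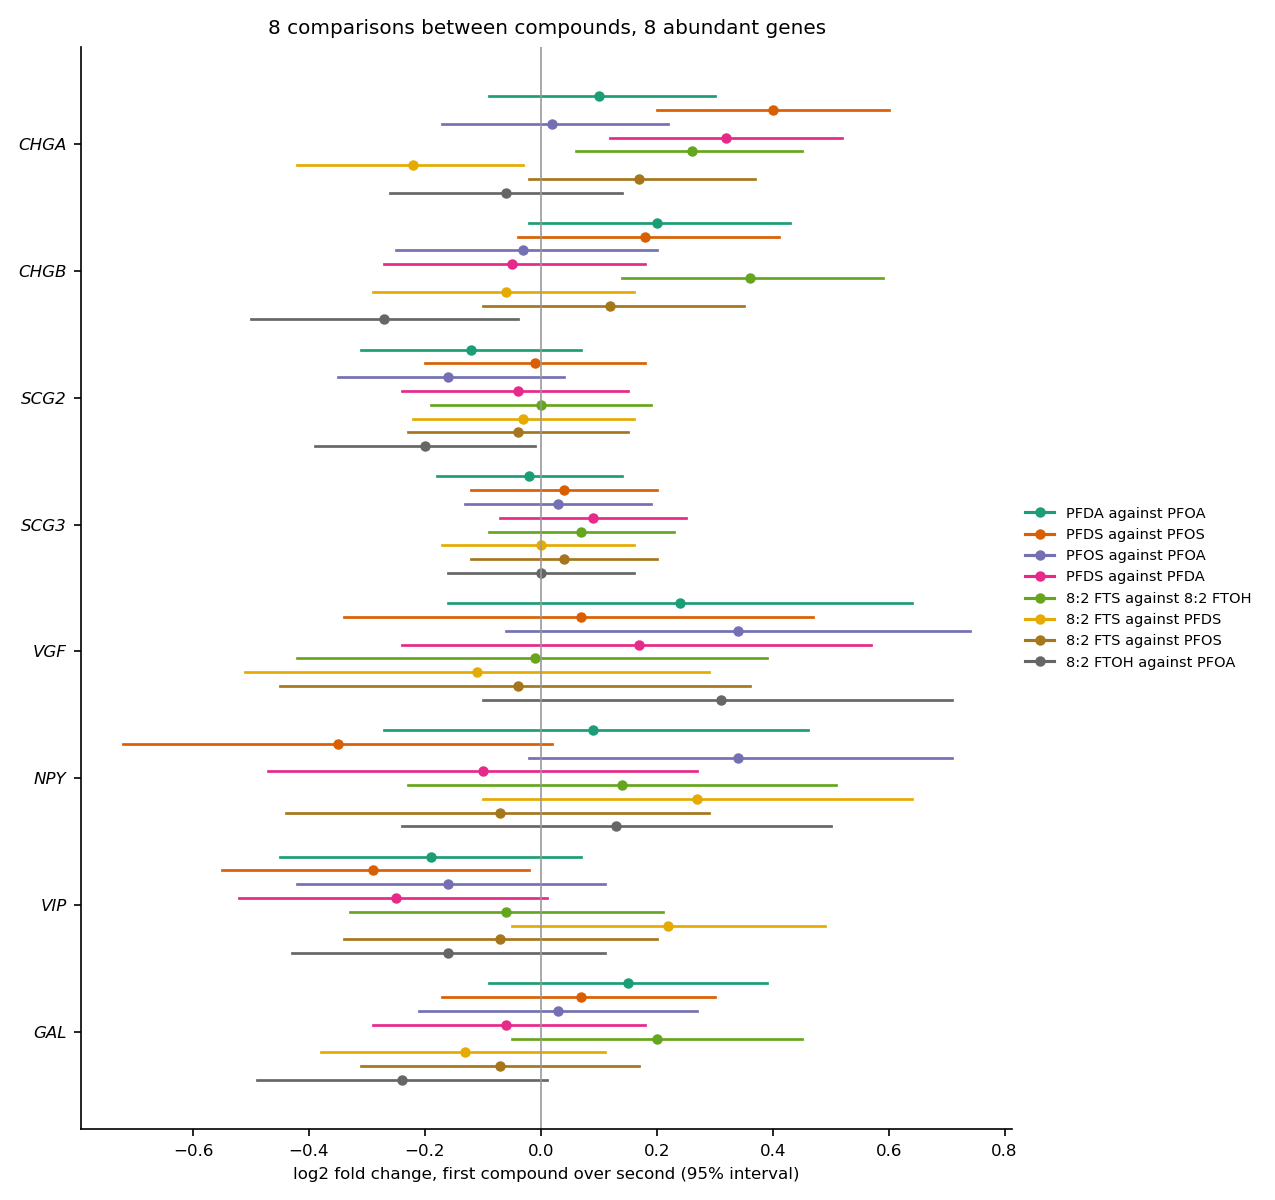
Log2 fold change of the 8 abundant genes between compounds with its 95% interval, first compound over second, for 8 pairs at the same dose and time. The point estimates lie between -0.35 and 0.40, and none passed the adjusted threshold.

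Other genes of the pathway were read from lists. The granule list holds 29 genes for cutting, amidating, sorting and releasing peptides, of which 26 were tested and 19 were at 10 CPM or more in control. The processing enzymes CPE (82.8 ± 7.74 CPM) and PAM (83.1 ± 5.8 CPM) and the granule membrane protein PTPRN (153 ± 2.94 CPM) were abundant in control, while the convertases that cut most neuropeptide precursors, PCSK1 and PCSK2, were at 0.705 ± 0.279 and 1.8 ± 0.479 CPM. None of the 156 tests of this list against control passed with edgeR or DESeq2 (10 had an unadjusted p under 0.05, or 6.41%, near the 7.75% of all genes). Its median log2 fold changes ran from -0.05 (PFOA) to 0.04 (8:2 FTS), and those of all genes from 0.00 to 0.01. The smallest unadjusted p was for PTPRN, at 189 ± 33.4 CPM with 8:2 FTOH and 153 ± 2.94 CPM in control (0.31, adjusted p = 0.274).

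Other neuropeptide precursors were scarce. Of 36 listed, 14 were tested, 1 (NMU, neuromedin U, 21 ± 0.608 CPM in control) was at 10 CPM or more, and 6 had no read in any library, among them PENK, TAC1 and CRH. None of 84 tests against control passed with either tool (6 unadjusted, 7.14%), and the lowest adjusted p was 0.466. Among 26 receptor genes, 14 were tested, and those with the most reads in control were OPRM1, the mu opioid receptor (331 ± 16.3 CPM), SORT1, which binds neurotensin (158 ± 6.8 CPM), and ADCYAP1R1, the PACAP receptor (116 ± 8.76 CPM). ADCYAP1R1 also binds VIP, with lower affinity. Of the other receptors of NPY, galanin and VIP in the list, NPY2R was at 1.79 ± 0.562, VIPR1 at 1.36 ± 0.237, VIPR2 at 0.21 ± 0.0654, GALR3 at 0.192 ± 0.016 and NPY1R at 0.0279 ± 0.0484 CPM in control, while GALR1 and NPY5R had no read in 21 libraries. None of 84 receptor tests passed with either tool (3 unadjusted, 3.57%).

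The transcription list holds 28 genes, of which 25 were tested. They encode transcription factors and coregulators of neuroendocrine or activity-dependent expression, with a few genes that such activity induces (DUSP1, SIK1, PER1 and BDNF). It had 10 calls in 150 tests over the 6 compounds (0.0342% of all genes' tests were called), all lower and all in EGR1 or FOS, and each fell for 5 compounds. Both are immediate early genes, and DESeq2 made 8 calls in the list. At an unadjusted p under 0.05 there were 29 of its tests (19.3%, against 7.75% over all genes). The list was chosen with earlier results of these data known, so these shares describe its members and do not test it as a set. FOS with 8:2 FTS, for example, had a mean of 1.56 ± 0.315 CPM, against 7.5 ± 0.934 CPM in control (-2.29, adjusted p = 9.53e-06), and EGR1 had 14.6 ± 0.59 CPM, against 35.8 ± 8.82 CPM (-1.30, adjusted p = 3.29e-06). VGF and CHGA, whose windows hold the EGR motif, passed the edgeR test for none of the 5 compounds with lower EGR1. The log2 fold changes of VGF there were -0.28 with PFOA, 0.06 with PFOS, -0.05 with PFDA, 0.12 with PFDS and 0.01 with 8:2 FTS. Those of CHGA were 0.01 with PFOA, 0.03 with PFOS, 0.11 with PFDA, 0.43 with PFDS and 0.21 with 8:2 FTS. DESeq2 called CHGA with PFDS (adjusted p = 0.0259). Whether EGR1 acts on either gene was not tested.

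Across the 21 libraries the 8 abundant genes did not vary as 1 block. As a description, with no test, the closest pair was SCG2 and VIP (Pearson r = 0.75 of log2 CPM, 0.79 after removing group means, 0.70 without PFDS replicate 1). VGF and NPY had r = 0.55, which was 0.39 without PFDS replicate 1, and CHGA and VIP had r = -0.68, which was -0.29 without it. VGF and VIP had r = 0.04, which was -0.59 without it. These values share libraries, depth and scaling. Among 13477 protein-coding genes at 1 CPM or more, the gene most like VGF in the 21 libraries was SCARF2 (r = 0.92), the one most like CHGA was EPAS1 (0.91) and the one most like VIP was RPL22L1 (0.90). For GAL it was WDR6, at 0.71.

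**Figure D5:**
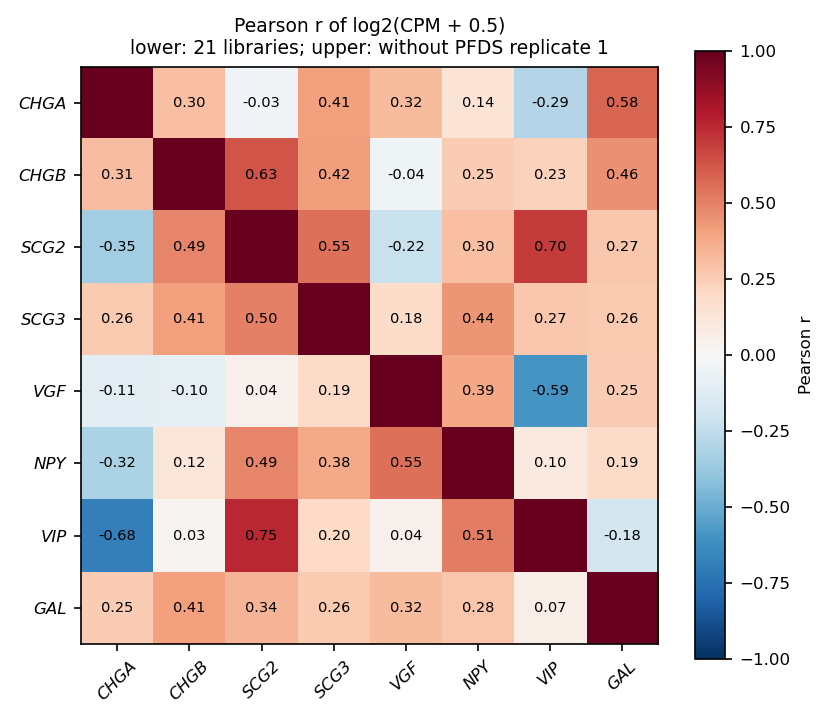
Pearson r of log2(CPM + 0.5) between the 8 abundant genes, over 21 libraries below the diagonal and over the 20 libraries other than PFDS replicate 1 above it. SCG2 and VIP stay closest (0.75 and 0.70), and VGF with VIP moves between 0.04 and -0.59.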

How the data were processed

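Reads were aligned and counted by the authors with HISAT2, SAMtools and featureCounts on hg38, per the submitters' processing notes. Version 2.0.1 of featureCounts ran with default options, per the file headers, so strand was ignored although the labels name a stranded kit. The deposited raw counts for 62656 genes in 21 libraries were used. The authors' normalized table was not used here.

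Low genes were removed by edgeR's filterByExpr (edgeR 4.0.16, R 4.3.3), which kept 24879, and TMM factors set the scale. One quasi-likelihood fit with robust settings took in the 21 libraries, with the 7 groups as its terms (biological coefficient of variation 0.1124). The Benjamini-Hochberg adjustment ran over the kept genes of every comparison, with calls at 0.05, and this fit gave the standard errors and 95% intervals. RPKM used the exon length in the file. Figures were drawn with matplotlib 3.10.9 in Python 3.11.15.

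The 10 genes and the lists were chosen with earlier results of these data known. A gene's fold change was followed through the alternatives where its unadjusted p was under 0.05 or the 3 libraries of one group did not overlap the 3 of the other. From each list every call and the 4 smallest p-values were taken, and list genes given as control levels were named after their values were seen. As alternatives, the scaling and the filter were changed, DESeq2 1.42.0 was run, the fit was limited to the groups compared or given the replicate number as a block, and libraries were left out.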

Additional observations from a re-analysis of the deposited data

How the results depend on the processing

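The number of calls among the 10 genes against control, 1 of 60 in the reported fit, was 0 with library size scaling, 0 with the stricter filter, 0 with the replicate block, 0 without control replicate 3 and 8:2 FTOH replicate 3, 2 with DESeq2, 5 with only the groups compared and 6 with no filter, and 0 to 3 when 1 library was left out. For the mean of the 6 compounds, 0 in the reported fit, it was 3 with no filter and 0 to 2 with 1 library left out. For any difference among the groups, 0 of the 10 in the reported fit, it was 5 with no filter, 2 with DESeq2 and 0 to 1 with 1 library left out. Over all genes that test had 8 calls in the reported fit and 269 with no filter. Between compounds, 0 of the 10 in the reported fit, it was 2 with no filter and 2 with only the groups compared. Over all genes, no filter gave 17 calls for PFDS over PFOS and 6 for 8:2 FTS over 8:2 FTOH. With only the groups compared, PFOS over PFOA had 2 calls over all genes. The cause of these changes in the counts was not tested. All 47 single fold changes followed through the alternatives kept their direction wherever the scaling, filter, model or a library of their own groups was changed. They were picked for groups without overlap or a low unadjusted p in the reported fit, so a kept direction was largely set in advance. CHGB with PFDA, which was not picked, ran from -0.25 to 0.07. Only the groups compared gives no value for the mean of the 6 compounds or for any difference among the groups. The replicate number is only a number here: same-numbered libraries had a median correlation of 0.01 (63 pairs, -0.26 to 0.26), and 7 of 21 libraries correlated best with their own number. With the block GALR2 with 8:2 FTS had an adjusted p of 0.0581. Depth limits GALR2 and SCG5, which had at most 34 reads per library. SCG5 is also limited by the exon bases it shares with ARHGAP11A-SCG5.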
